A study of Mus musculus with 2 samples.

Results

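The loci described here are mouse genome places where H3K4me3 and H3K36me3 were both higher in wild-type (WT) than in Dicer knockout (KO) mesenchymal stromal cells (MSCs). Higher means more reads in WT than in KO after the authors had scaled the KO reads. Acetylation of H3K27 was not listed as different at these places. The starting list held 5542 H3K4me3 events higher in WT, out of 21418 events in the 6 deposited lists. An event was kept if an H3K36me3 event higher in WT lay within 5 kb, if no H3K27ac event of either direction lay within 10 kb, and if it was not on chromosome 9 or X. This left 492 of the 3829 H3K4me3 events on the 18 remaining chromosomes (12.8%), with 362 of the 2587 H3K36me3 events of the WT list within 5 kb of them (14.0%). The choice used the direction of both marks, so the size of the difference in either mark is given as a description and was not tested. H3K27ac may be present at these places: the rule says only that no difference in it was listed.

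H3K4me3 is laid down around the start sites of active genes by SET1 and MLL methyltransferases. H3K36me3 is laid down along gene bodies by SETD2, which travels with elongating RNA polymerase II, and H3K27ac marks active promoters and enhancers. Dicer cuts microRNA precursors into mature microRNAs, so that cells without it lack most microRNAs. The labels describe 2 chromatin immunoprecipitation samples, 1 Dicer KO and 1 Dicer WT, both for H3K27ac; the lists of the other marks have no sample label. The cells were monoclonal immortalized mesenchymal stromal cells, grown in Alpha-MEM with fetal bovine serum, cross-linked with formaldehyde and called fibroblasts in the titles. The sources used here do not say how Dicer was removed or how many clones were used. A difference between genotypes therefore cannot be told apart from a difference between clones. The lists give 1 value per genotype for each event, so there was no replicate error and no test, and 95% intervals cover counting error of the reads only. Total reads per library are unknown.

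The caller also assigned short sequence words (k-mers) to a few events of both WT lists. They are shown because they are what the lists say about sequence at these loci: words 1 to 3 belong to H3K4me3 events and words 4 and 5 to H3K36me3 events. Capitals mark the positions where the words of a mark differ.
word 1: cGcccGgt
word 2: cCcccGgt
word 3: cGcccTgt
word 4: gtGgtgtg
word 5: gtTgtgtg
Word 1 was assigned to 11 of the 492 H3K4me3 events, word 2 to 7 and word 3 to 7. Together that was 5.08%, against 6.77% of the 3337 other events of the list on the same chromosomes. On either strand, word 1 occurs in 0.861% of 32851 RefSeq promoter windows of build GRCm38, word 2 in 0.661% and word 3 in 1.00%. The 25 events with a word had a median H3K4me3 ratio of 3.09 (WT over KO, quartiles 2.76 and 4.21), and the 467 without one had 3.50 (2.67 and 5.43). Of the 362 H3K36me3 events, 16 had word 4 and 8 had word 5. Together that was 6.63%, against 4.67% of the 2225 other H3K36me3 events of the WT list. Word 4 occurs in 1.36% of the same promoter windows and word 5 in 0.932%. Presence of a word in a window is a different measure from its assignment to an event by the caller. The shares of windows and of events were therefore not compared. The words thus covered few events of either mark, and the quartile ranges of the H3K4me3 ratio with and without a word overlapped.

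In WT the 492 events had a higher median of H3K4me3 reads than the other events of the list, with overlapping quartile ranges. At the median, WT gave 686 reads (lowest 98.1, quartiles 390 and 1087, highest 2384). KO gave 198 scaled reads (lowest 3.3, quartiles 81.7 and 346, highest 900.5), KO reads being scaled to WT by the authors. The other events of the list had medians of 509 WT reads (quartiles 278 and 900) and 158 scaled KO reads. The ratio of WT reads to scaled KO reads had a median of 3.46 (quartiles 2.68 and 5.40), against 2.99 (2.53 and 4.53) for the other events. The lowest ratio was 1.26, at 87680499 on chromosome 4, and the highest was 110 (59.0 to 214), at 102195883 on chromosome 15. A ratio of at least 5 was reached by 133 of the 492 (27.03%), where 22.6% of the whole list reached it. A ratio of at least 10 was reached by 54 (10.98%, against 10.7%), and 27 of those 54 rested on fewer than 20 scaled reads in KO.

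**Figure D1:**
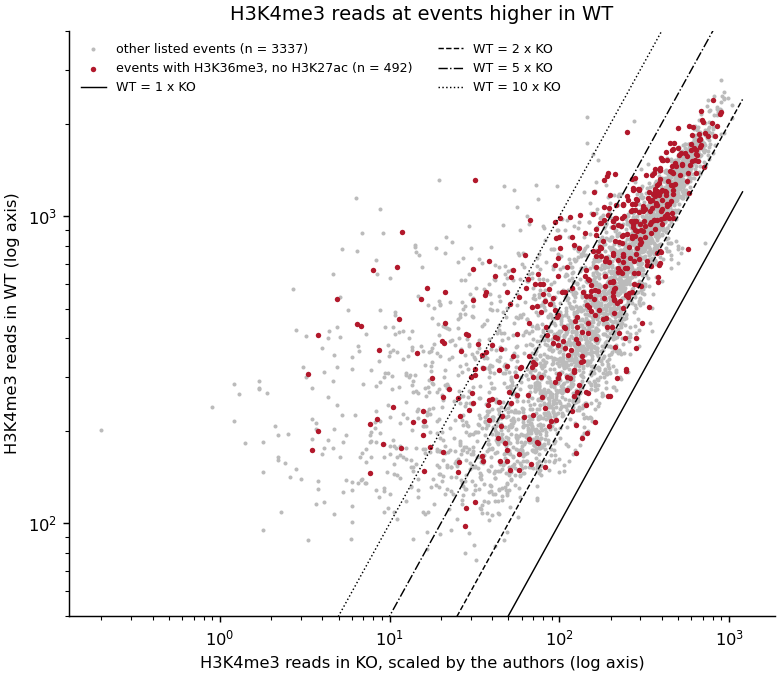
H3K4me3 reads in WT (vertical, log axis) against scaled reads in KO (horizontal, log axis) for each event higher in WT on the 18 chromosomes; lines mark ratios of 1, 2, 5 and 10. The 492 events with H3K36me3 and without H3K27ac (red) lie within the cloud of the 3337 other events (grey), mostly between the lines for 2 and 5.

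The size of the difference followed the marks beside the event. Events with H3K36me3 within 5 kb and H3K27ac within 10 kb (102 events) had a median H3K4me3 ratio of 7.78 (quartiles 4.14 and 23.1). Those with H3K27ac and no H3K36me3 (360 events) had 5.77 (3.49 and 15.02), and those with neither (2875 events) had 2.88 (2.49 and 3.87). The 492 events, at 3.46, thus lay above events with neither neighbour and below events with H3K27ac. Their WT reads were the highest of the 4 classes, with a median of 686 against 613, 436 and 519 in the order just given. Median KO reads were 198 scaled reads here, 74.2 and 68.7 in the classes with H3K27ac, and 178 with neither mark. Neighbouring events share clusters, so these medians were not compared by a test.

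The sizes depended on the scale between genotypes. With reads of each genotype, unscaled, taken relative to that genotype's background on the chromosome, the median ratio of the 492 events was 1.97 (quartiles 1.46 and 3.06). On that scale 242 of 492 (49.2%) were at least 2-fold higher in WT, against 37.7% of the list, and 29 (5.89%) fell below 1. The order of the classes was the same: 4.17 with H3K36me3 and H3K27ac, 3.29 with H3K27ac, and 1.56 with neither. The name "higher in WT" therefore holds at the authors' scale for every event, and on the background scale for all but those 29.

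**Figure D2:**
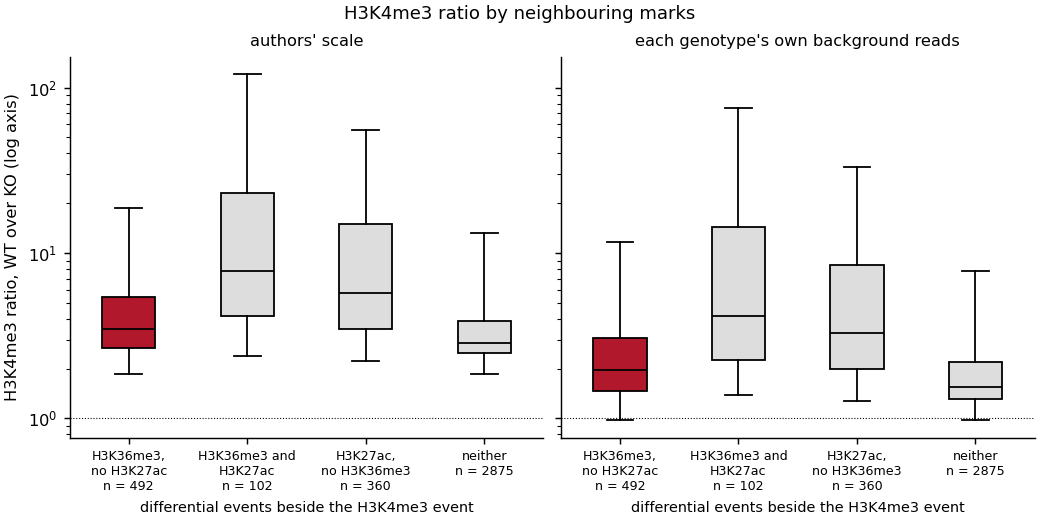
H3K4me3 ratio, WT over KO (log axis), by the differential events beside each H3K4me3 event, at the authors' scale (left) and in units of each genotype's background reads (right). Boxes show quartiles and the median, whiskers the 5th and 95th percentiles; the median of the 492 events (red) is 3.46 on the left and 1.97 on the right.

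H3K36me3 beside these events had far fewer reads. The 362 H3K36me3 events gave a median of 74.2 WT reads (lowest 30, highest 485). For KO the median was 20.3 scaled reads (lowest 0, highest 191.8). Their median ratio was 3.61 (quartiles 2.77 and 5.22), and that of the 2225 other H3K36me3 events of the list was 3.70 (2.79 and 5.87). A ratio of at least 5 was reached by 99 of 362 (27.3%), where 32.0% of the list reached it. Reads, ratio and list share thus all lay near those of H3K36me3 events elsewhere. The authors' −log10 q was at least 5 in 183 of the 362 (50.6%) and in 37.5% of the others. For 1 event, at 95430658 on chromosome 7, KO gave 0 reads and WT 30, so that no ratio is given. No own-background scale could be formed for H3K36me3, whose expected reads in the lists are local.

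Merged with their H3K36me3 neighbours within 5 kb, the 492 events formed 157 loci. The median locus spanned 3.99 kb (quartiles 2.83 and 4.87, longest 10.2 kb) and held 3 H3K4me3 and 2 H3K36me3 events. A single H3K4me3 event stood in 23 loci, 3 or more in 101, and 5 or more in 29. In 65 loci there was 1 listed H3K36me3 event, and the run of H3K36me3 events at most 5 kb apart had a median length of 0.557 kb. Length was taken between event positions, so a single event counts as 0.001 kb. The extent of the H3K36me3 signal itself was not measured, and runs elsewhere in the list were not compared. A run of 10 kb or longer was found at 4 of the 157 loci. In 109 loci (69.4%, 61.6 to 76.5) all H3K36me3 events lay on 1 side of the H3K4me3 cluster, in 19 all lay inside it, in 27 they lay both beside and inside it, and in 2 on both sides. A locus with 1 H3K36me3 event cannot have it on both sides, and one with 1 H3K4me3 event cannot have H3K36me3 inside. Among the 85 loci with 2 or more events of each mark, H3K36me3 lay on 1 side in 45 (52.9%, 41.8 to 63.9), beside and inside in 27, inside in 11 and on both sides in 2.

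Some of the events of the 2 marks lay almost at the same position. The median distance from an H3K4me3 event to its nearest H3K36me3 event was 1801 bp (quartiles 700 and 2980), inside the limit of 5 kb. It was at most 1000 bp for 158 of 492 events and at most 200 bp for 54 (10.98%, 8.35 to 14.1), in 38 loci. H3K4me3 events within 1000 bp of H3K36me3 had a median ratio of 3.89 (quartiles 2.88 and 7.08) and 819 WT reads. In the 4 classes of 1000 bp beyond that, the medians ran from 3.25 to 3.43 and the WT reads from 575 to 715. H3K36me3 events within 200 bp of an H3K4me3 event had a median of 83.5 WT reads and a ratio of 4.03, against 69.3 reads and 3.64 at 3000 to 5000 bp. Both differences are small beside the quartile ranges.

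Within a locus the ratio of H3K4me3 was uneven, and it was usually larger at the end facing H3K36me3. In 101 loci with 3 or more H3K4me3 events, the highest ratio was a median of 2.31 times the lowest (quartiles 1.51 and 4.20, largest 38.8). In 86 loci with 2 or more such events and H3K36me3 on 1 side, the event nearest to H3K36me3 had a larger ratio than the event at the far end in 68 (79.1%, 69.0 to 87.1). The intervals of the 2 ends were apart in that direction in 47 loci and in the opposite direction in 8. The median ratio was 4.48 at the end facing H3K36me3, with 355 WT reads, and 3.11 at the far end, with 549 WT reads. In 44 loci whose strongest event lay between the ends, the reads of the ends were close: 396 on the H3K36me3 side and 427 on the far side, with 1094 at the strongest event. There the medians of the ratio rose from 2.60 at the far end to 3.33 at the strongest event and 4.43 facing H3K36me3. The H3K36me3 side exceeded the far side in 35 of 44 and the strongest event in 28 of 44. Ratios within a locus share 1 chromosome and 1 scaling factor, so this order does not depend on the scale between genotypes.

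On chromosome 6 of build mm9, which holds for all positions given here, the locus from 6810955 to 6819013 held 5 H3K4me3 events followed by 6 H3K36me3 events. The first 3, at 6810955, 6812748 and 6813513, had ratios of 3.51 (3.13 to 3.92), 3.26 (2.90 to 3.67) and 3.49 (3.15 to 3.87). The fourth, at 6814139, had 1172 WT reads against 197.7 scaled KO reads, a ratio of 5.93 (5.31 to 6.64). The last, at 6814752, had 391 against 20.3, a ratio of 19.3 (14.1 to 26.99). The intervals of the last 2 events lay above those of the first 3. H3K36me3 began at 6815436, with 741 WT reads against 142.6 scaled KO reads over its 6 events (ratio 5.197, 4.14 to 6.59). The next locus along, 6827015 to 6831669, faced the other way: its H3K4me3 ratio was 15.3 (12.2 to 19.1) at 6829508, beside H3K36me3, and 6.42, 4.12 and 3.80 at the 3 events behind it.

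A second locus of chromosome 6, 51218869 to 51220586, had H3K4me3 ratios of 3.89 (3.58 to 4.23), 8.63 (7.50 to 9.94) and 19.9 (12.4 to 32.9) in order towards its H3K36me3 event. WT reads fell in the same order, 1542, 996 and 181. That H3K36me3 event rested on 58 WT reads and 1.7 scaled KO reads, with a ratio of 34.1 (5.90 to 1373).

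On chromosome 8, from 108858433 to 108862492, WT reads were nearly level over the 3 H3K4me3 events, at 611, 692 and 683. Scaled KO reads were 382, 94.2 and 11, so the ratio went from 1.60 (1.44 to 1.78) to 7.35 (6.26 to 8.61) and 62.1 (41.2 to 97.1) towards H3K36me3. The 3 intervals did not overlap. A second locus of chromosome 8, from 123640494 to 123645436, held the H3K4me3 event with the largest −log10 q of the 492, at 123641994, with 1309 WT reads, 31.8 scaled KO reads and a ratio of 41.2 (32.3 to 53.3). Its 5 ratios were 7.63, 15.2, 41.2, 75.02 and 13.8 in order, so that the end nearest to H3K36me3 was not the highest. H3K36me3 there rested on 1 event of 39 WT reads against 8.5 scaled KO reads.

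Some loci that ran the other way had high ratios too. On chromosome 16, from 19760738 to 19766087, the H3K4me3 ratio was 64.4 (38.0 to 114) at the far end, then 21.2 (15.6 to 29.4) and 5.79 (4.23 to 8.06) nearest to H3K36me3. On chromosome 10, at 79240364, the far event, with 447 WT and 6.4 scaled KO reads, reached 69.9 (40.9 to 128), and the near one 12.3 (8.57 to 18.4). Both loci had fewer than 30 scaled KO reads in every H3K4me3 event. A named locus on chromosome 5, from 141084199, also ran the other way but with lower ratios at its ends. They were 3.926 (3.545 to 4.354) at the far end and 1.945 (1.622 to 2.331) nearest to H3K36me3, with 7.538 and 9.235 between.

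**Figure D3:**
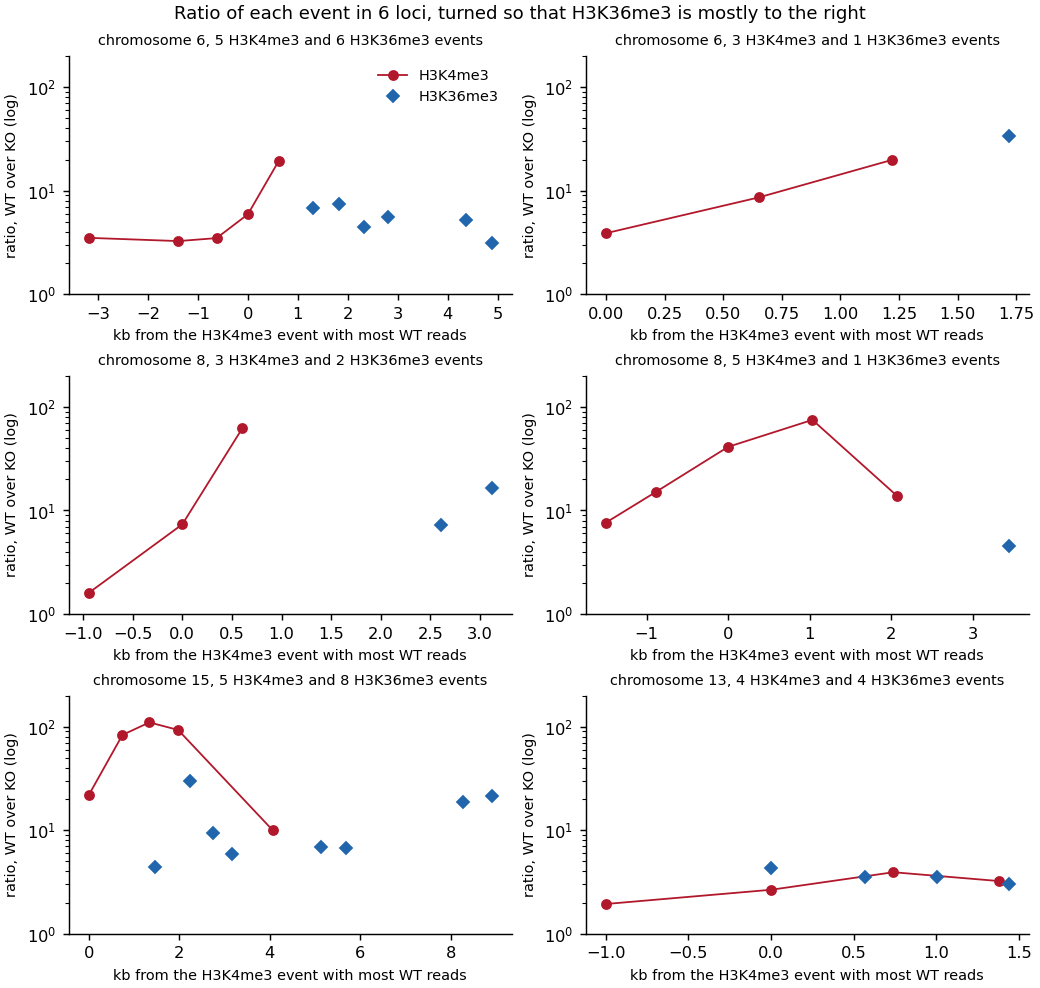
Ratio, WT over KO (log axis), of each H3K4me3 (red, joined) and H3K36me3 (blue) event in 6 loci, by distance in kb from the H3K4me3 event with most WT reads and turned so that H3K36me3 is mostly to the right. The loci were chosen from the named ones after their values were seen; in the upper 2 and the middle left plot the ratio climbs towards H3K36me3, from 1.60 to 62.1 on chromosome 8.

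A similar count was made for the other events of the list, joined within 5 kb into clusters inside each class. A cluster was counted if the nearest H3K36me3 event higher in WT lay on the same side of all its events. Such a cluster can be part of a longer one that runs into another class or into a locus described here. Another listed H3K4me3 event lay within 5 kb of 21 of the 157 loci. Clusters of the H3K4me3 list with H3K36me3 within 5 kb and H3K27ac within 10 kb had the larger ratio on the H3K36me3 side in 18 of 25 (72.0%, 50.6 to 87.9). Among clusters without H3K27ac within 10 kb, the count was 70 of 95 (73.7%, 63.6 to 82.2) with the nearest H3K36me3 event higher in WT 5 to 20 kb away. It was 106 of 164 (64.6%, 56.8 to 71.9) at 20 to 100 kb and 270 of 524 (51.5%, 47.2 to 55.9) beyond 100 kb. The shares were lower in the classes farther from H3K36me3, but the intervals of neighbouring distance classes up to 100 kb overlapped and no difference between classes was tested. The clusters come from 1 pair of pooled lists and are not replicates, so the intervals describe the counts only. By coordinate alone, of 785 clusters with neither mark within the limits and 2 or more events, the end at the higher coordinate had the larger ratio in 422 (53.8%).

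**Figure D4:**
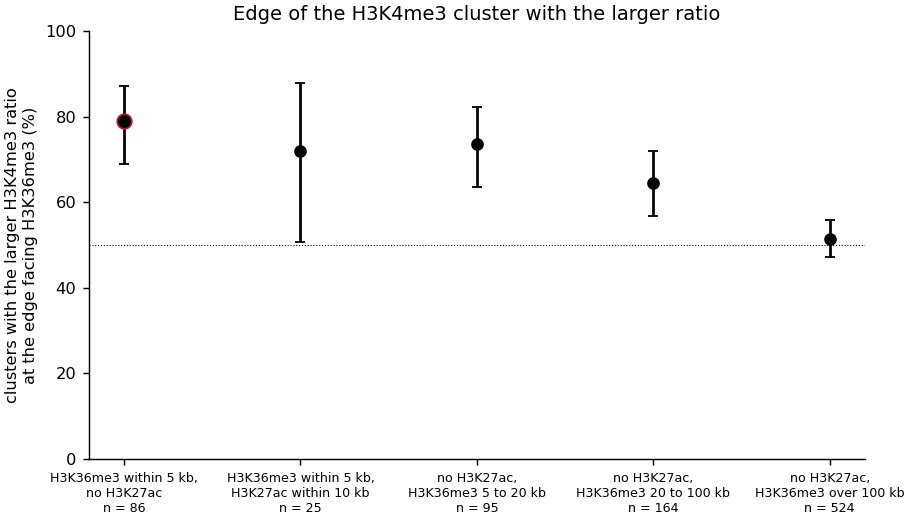
Percent of H3K4me3 clusters with 2 or more events whose end facing the nearest H3K36me3 event higher in WT had the larger H3K4me3 ratio, by distance to that event and H3K27ac; bars are exact 95% binomial intervals. The share is 79.1% for the loci described here (red) and 51.5% with H3K36me3 over 100 kb away. The dotted line marks 50%. Clusters of the other classes were formed inside each class and can be parts of longer clusters.

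Some loci had large ratios in both marks. On chromosome 15, from 102188319 to 102197224, 5 H3K4me3 events together had 2502 WT and 78.9 scaled KO reads, and a joint ratio of 31.7 (27.2 to 37.3). Those at 102195247, 102195883 and 102196478 had ratios of 93.0, 110 and 83.3, each with fewer than 10 scaled KO reads. The 8 H3K36me3 events, some among the H3K4me3 events, had 543 WT reads against 61.2 scaled KO reads (8.87, 6.34 to 12.8). On chromosome 2, from 120964076 to 120967231, the H3K4me3 ratio was the largest of the 157 loci, 45.7 (31.0 to 69.7), on 566 WT and 12.4 scaled KO reads. H3K36me3 there had 274 WT reads against 18.7 scaled KO reads, a ratio of 14.7 (8.07 to 29.8).

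On chromosome 4, from 137346189 to 137351915, H3K4me3 had 2097 WT reads against 99 scaled KO reads (21.2, 18.4 to 24.5). H3K36me3 there had 264 WT reads against 15.3 scaled KO reads (17.3, 8.97 to 38.2). The locus was 1 end of an H3K36me3 run of 14 events that started at 137333868. On chromosome 17, from 25703223 to 25708110, the ratios were 11 (9.59 to 12.6) and 15.3 (7.63 to 35.96), and the H3K4me3 event facing H3K36me3, at 25706788, reached 108 (56.0 to 260). These 4 loci differed more than 8-fold in each mark, and 16 of the 157 reached 5-fold in both.

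Other loci with large −log10 q kept more H3K4me3 reads in KO. On chromosome 10, from 36852910 to 36860569, 6 H3K4me3 and 8 H3K36me3 events gave 6023 and 949 reads in WT. Their ratios were 6.33 (6.02 to 6.66) and 7.24 (5.75 to 9.29), and this locus was among the first 10 by −log10 q in both marks. On chromosome 8, from 71404152 to 71411276, the ratios were 4.65 (4.42 to 4.90) and 6.91 (5.38 to 8.999). On chromosome 3 they were 6.42 (6.10 to 6.76) and 5.47 (3.72 to 8.32) from 83570046, and 2.98 (2.83 to 3.13) and 5.37 (4.31 to 6.74) from 115413783. The latter is 1 of 12 loci whose H3K36me3 interval lay above its H3K4me3 interval at the authors' scale. The opposite order was found in 15 loci, and in the other 130 the intervals overlapped. Each mark has its own scaling factor, which the intervals do not cover, so these counts depend on the scale.

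At several loci H3K36me3 lay wholly or mostly inside the H3K4me3 cluster. On chromosome 13, from 51941464 to 51943902, 4 H3K4me3 events (4871 reads in WT, ratio 2.85, 2.73 to 2.98) alternated with 4 H3K36me3 events (896 reads, 3.50, 2.94 to 4.18). The H3K36me3 event at 51943468 had the largest −log10 q of all 362, 28.8, on 334 WT and 94.7 scaled KO reads. On chromosome 16, from 14706345 to 14709081, all 3 H3K36me3 events (1167 reads, 2.93, 2.55 to 3.40) lay among 5 H3K4me3 events, whose ratios went from 2.32 (2.16 to 2.50) at 1 end to 8.72 (7.34 to 10.4) at the other. On chromosome 4, from 131864938 to 131866375, the ratios were 2.73 (2.60 to 2.87) and 2.57 (2.14 to 3.12). These loci had many reads of both marks over less than 3 kb, and modest ratios.

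Some of the loci with most H3K4me3 events were among the least different. On chromosome 11, 8 events from 44431860 to 44437352 had 5979 WT reads and 2646 scaled KO reads. Their ratio of 2.26 (2.18 to 2.34) was the smallest of the 157 loci. On chromosome 19, 6 events from 5842911 to 5848999 had 2.28 (2.21 to 2.36), and 6 from 5447965 to 5457284 had 2.38 (2.29 to 2.46). In background units the median event of the 2 loci of chromosome 19 had 1.06 and 1.08. On chromosome 11, 7 events from 100270263 to 100280478 had 4.72 (4.48 to 4.97), between H3K36me3 events on both sides. Over the 157 loci, the H3K4me3 ratio and its WT reads had a Spearman's rho of -0.36, and both contain the WT reads.

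**Figure D5:**
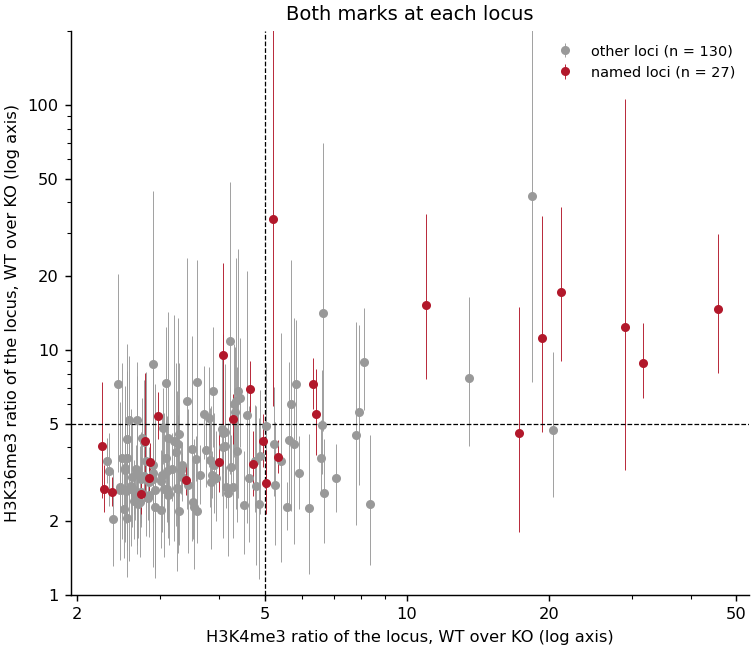
H3K36me3 ratio of each locus (vertical, log axis, with exact 95% binomial intervals, 2 of which run past the axis) against its H3K4me3 ratio (horizontal, log axis); dashed lines mark 5-fold. Most of the 157 loci lie below 5-fold in both marks, and 16 lie above it in both.

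Loci with a larger H3K4me3 ratio tended to have a larger H3K36me3 ratio, with a Pearson correlation of 0.58 on log2 ratios over 157 loci (Spearman's rho 0.44), and 0.55 without the 2 loci farthest from the median. This is a description without a test: the loci share 1 pair of cell lines, and both ratios had to be above the lists' thresholds. Of the 157 loci, 19 reached 5-fold in H3K4me3 only, 21 in H3K36me3 only, and 101 in neither. The 16 loci at 5-fold in both had a median of 107 scaled H3K4me3 reads in KO, and the 101 in neither had 785. Their WT reads were 1427 and 2565, so the loci with the largest ratios were not those with most H3K4me3 in WT.

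Members lay on all 18 chromosomes. Their share of listed H3K4me3 events was highest on chromosome 16, with 31 of 91 (34.1%), and chromosome 11, with 25 of 102 (24.5%). It was lowest on chromosome 14, with 1 of 160 (0.625%), where 43 H3K36me3 events higher in WT were listed. The chromosomes with the highest numbers of members were 4 (58), 10 (52) and 19 (48), which also had the most listed events of the 18. On these 3 chromosomes the KO to WT ratio of H3K4me3 background reads, relative to the median chromosome, was 0.865, 0.834 and 0.785, the lowest of the 18. Its part in the H3K4me3 ratios was not tested. The median member ratio there was 3.23, 3.16 and 2.86, and in background units 1.65, 1.56 and 1.33. On chromosome 2, 24 members had a median ratio of 7.84, or 4.87 in background units, the highest of the 18.

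Events higher in KO were rare near WT-higher H3K4me3 events of every class. None of the 492 events had an H3K4me3 or H3K36me3 event higher in KO within 20 kb, for which the exact 95% interval reaches 0.747%. Of the 2875 events with neither neighbour, 21 (0.730%) had such an H3K4me3 event and 13 (0.452%) such an H3K36me3 event within 20 kb, shares inside that interval. Of the 360 events with H3K27ac and no H3K36me3, 8 (2.22%) had one in each mark, a share above it. Of the 102 with both neighbours, 0 had such an H3K4me3 event and 2 (1.96%) such an H3K36me3 event. The nearest to a member were 20.3 kb and 21.6 kb away. Within 50 kb there were 12 (2.44%, 1.27 to 4.22) and 13 (2.64%, 1.41 to 4.48), against 2.09% and 1.11% of the events with neither neighbour. The nearest differential H3K27ac event of either direction was a median of 175 kb away (quartiles 87.1 and 416). The mirrored rule found few events in the KO lists. Of 717 H3K4me3 events higher in KO on the same chromosomes, 85 (11.9%) had H3K36me3 higher in KO within 5 kb, and 12 of these 85 (14.1%, 7.51 to 23.4) lacked H3K27ac within 10 kb, against 492 of 594 (82.8%, 79.6 to 85.8) in WT. The shares for WT and KO were computed against the same H3K27ac lists of both directions, which differ in length, so they are set side by side only.

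Values at the limits of the rule were as follows, without a test. The 3 members farthest from H3K36me3, at 4942 to 4999 bp, had H3K4me3 ratios of 7.63, 2.55 and 2.62. The 3 events just outside, at 5034 to 5038 bp, had 5.07, 1.89 and 2.80. The 3 members nearest to H3K27ac, at 11161 to 11841 bp, had 2.93, 6.59 and 3.45, and the 3 events just outside, at 9136 to 9764 bp, had 3.19, 4.33 and 5.55.

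The caller also recorded the shape of the reads. Against its model (log10 scale), the members had a median of -0.87 (quartiles -0.99 and -0.74) and the other events -0.92 (-1.03 and -0.78). Between genotypes the score was -0.31 (-1.20 and 0.86) for members. It was 1.91 for events with both neighbours, 1.75 with H3K27ac only, and -0.37 with neither. The median of the members was thus near that of events with neither neighbour and below those beside H3K27ac, while the quartile ranges overlapped.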

How the data were processed

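The data were 6 lists of ChIP-seq events, 1 per mark and direction, made by the authors with GPS or GEM, per the file headers and names; no source used here gives a version of either. The build was mm9, and the submitters' processing notes list TopHat 1.4 with no role. In the lists of WT-higher events each event has an estimated count in WT and a scaled signal of KO reads, as deposited by the authors. The deposited fold is their ratio and was recomputed here. Deposited −log10 q values start at 2. The deposited shape values are log10 divergences, and that between genotypes is a score. H3K27ac replicates were pooled, per the file names. For the other marks this is not stated.

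KO reads in the WT lists had been multiplied by 0.461 (H3K4me3) and 1.70 (H3K36me3). These factors were recovered as the step whose share of control values whole within 0.06 most exceeded the share for random values. At those steps 54.3% and 92.4% of values were whole. Random values are whole more often at a smaller step, so the H3K4me3 factor is the less certain of the 2. The KO H3K4me3 list gives 0.466 for the first as an inverse. Ratio intervals are exact conditional binomial (Clopper-Pearson) intervals of unscaled reads. They treat reads as independent, which reads without molecular identifiers are not. Intervals of shares treat neighbouring events as independent. The step search, neighbour search and intervals were tested on simulated data. Python 3.11.15, NumPy 2.4.6, pandas 2.3.3 and SciPy 1.17.1 were used.

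Named loci were the first 10 by −log10 q of each mark, the first 5 by number of events of each mark, and the first 5 by the largest ratio of a single event of each mark, 27 in all. The members, the lists and these rules were chosen with earlier results of these data known, and the order towards H3K36me3 was examined after seeing the data. Genes were not assigned, since the gene tables used here are of GRCm38.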

Additional observations from a re-analysis of the deposited data

How the results depend on the processing

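Of 35 alternatives to 7 results, 21 stayed within 1.5 times the reported count or within the interval of the reported median or share. The other 14 moved beyond those limits. At the authors' scale the direction of a ratio could not turn, because all events came from lists higher in WT. Counts and shares were not scored for direction. With H3K36me3 within 2 kb there were 267 members, keeping −log10 q from 5 upwards 284 in 84 loci, and with chromosomes 9 and X kept 741. The median H3K4me3 ratio was 1.97 in own background reads, 3.68 with each locus counted once and 3.69 without chromosomes 4, 10 and 19, against an interval of 3.25 to 3.66. The median H3K36me3 ratio was 4 with −log10 q from 5 upwards (interval 3.46 to 3.87). The median distance was 781 bp with the limit at 2 kb, 2534 bp at 10 kb and 1453 bp with each locus counted once. At 3-fold, 316 members passed (64.2%, against 51.5% of the whole list), and at 10-fold 54 (10.98%, against 10.7%). In own background reads at 5-fold, 67 passed, and the share of the list was not computed for that setting. The share of loci with the larger ratio on the H3K36me3 side ran from 75.9% to 84.4% over 5 alternatives. Leaving out chromosomes 4, 10 and 19, all alternatives for the side of the larger ratio, and 5-fold in background reads were chosen after seeing the data. No paired analysis was possible because each event has a single value in WT and a single value in KO, which also means that leaving out a replicate was not possible. Library depth is unknown, and H3K36me3 had fewer reads per event than H3K4me3.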
